A study of Mus musculus with 4 samples.

Results

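Laminins are the cross-shaped glycoproteins that polymerize into the sheet on which a basement membrane is built, and each is a heterotrimer of an alpha, a beta and a gamma chain. In the kidney, podocytes and endothelial cells together lay down the glomerular basement membrane, whose mature laminin is made of the chains encoded by Lama5, Lamb2 and Lamc1, whereas the immature membrane carries the product of Lamb1 in place of that of Lamb2. Loss of LAMB2 is a known cause of congenital nephrotic syndrome. The chains encoded by Lama3 and Lamb3 belong to the laminin of epidermal anchorage, Lama4 encodes the alpha chain typical of vessel walls, and Lama1 encodes that of early embryonic basement membranes. The genes described here are 8 chains of this family, Lama1, Lama3, Lama4, Lama5, Lamb1, Lamb2, Lamb3 and Lamc1, taken by gene name from the 54532 genes of the deposited count table, and each name matched 1 row.

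RNA was sequenced from MPC5 cells, a conditionally immortalized mouse podocyte line that is expanded with interferon-γ at a permissive temperature and differentiates when both are withdrawn. The IL-12 group (2 libraries) was incubated with 400 ng/ml of the cytokine IL-12 for 6 h, and the control group (2 libraries) received saline. Both groups come from a single line, kept in culture without the endothelial cells that share the membrane in the kidney. No source used here says whether the sequenced cells had been differentiated. It is also not said whether replicates were cultured separately, so that p-values cannot be taken to measure the spread between separate cultures. The question posed by the design was how IL-12 changes podocyte gene expression.

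Library totals ranged from 18355379 to 20098012 counts, at which 3 counts, taken here as the detection floor, equal 0.149 to 0.163 CPM, the unit of counts adjusted for library size. Counts of the same group differed by a chi-square of 2.13 (control) and 2.41 (IL-12) per degree of freedom, and those of different groups by 16.4 to 19.7, so that replicates were not copies of one another. The podocyte label was checked against 13 marker genes. Synpo, which encodes the actin-associated protein synaptopodin, had 9269 and 8869 counts in control and 5965 and 5552 in IL-12 libraries. The slit diaphragm gene Nphs1 had at most 1 count in any library, and Tcf21 and Ptpro were at 0 in all 4, so that these defining markers of mature podocytes were not detectable at this depth. The 13 genes summed to between 2806 and 2861 CPM in every library, but this sum hides changes that offset each other. Synpo had 489 and 470 CPM in control and 302 and 307 CPM in IL-12 libraries, while other markers rose. Of the 7 that were tested 3 rose and 1, Synpo, fell (log2 fold change -0.66 ± 0.03 SE), beside 16.1% of all genes tested higher and 14.4% lower. Of the 3 that rose, 2 lost their calls when a library was left out, among them Podxl without IL-12 replicate 1. Of the other cell types, the 5 endothelial markers, with Emcn at 0, summed to 0.159 to 0.556 CPM, the 5 leukocyte markers, with Adgre1 and Cd3e at 0, to 4.91 to 7.19 CPM, the 4 mesangial markers to 69.6 to 81.8 CPM and the 5 tubule markers to 517 to 659 CPM, nearly all of it from Lrp2 with Slc34a1 and Umod at 0. The endothelial and leukocyte sums overlapped between the groups, the mesangial sums were 69.6 and 70.6 CPM in control and 71.1 and 81.8 CPM in IL-12 libraries, and the tubule sums were 632 and 659 CPM in control and 517 and 558 CPM in IL-12 libraries. The mesangial markers were split, since of 3 tested 1 rose and 1 fell. Both of these calls were lost under another test, the DESeq2 Wald test. The part of these markers in the laminin results was not tested. In bulk RNA, fewer cells of a type and less RNA per cell cannot be told apart.

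Of the 8 chains, 5 had enough counts to be tested (Lama5, Lamb1, Lamb2, Lamb3 and Lamc1), and 3 did not (Lama1, Lama3 and Lama4). A gene was taken as changed when its adjusted p from edgeR's quasi-likelihood test across all 14095 genes tested was below 0.05. After IL-12, Lama5 and Lamb2, the alpha and beta chains of the mature glomerular laminin, were lower: Lama5 fell by 18.0% and Lamb2 fell by 22.5%. Lamb1, the beta chain of the immature membrane, rose by 7.70%, a call that was lost under some of the other settings tried, and Lamb3, the epidermal beta chain, rose 5.46-fold from a low level. Lamc1, the gamma chain common to most laminins, did not pass the test. Thus 4 of the 5 passed, beside 30.5% of all genes tested, with 2 higher (16.1% of all genes) and 2 lower (14.4%). Lamb3 alone also changed over 2-fold, the criterion of the study, which 1.61% of all genes met. The libraries of the groups did not overlap for any of the 5, which was so for 62.9% of all genes. Among all genes past the test, 52.8% were higher after IL-12 with the libraries scaled by TMM and 40.5% with total counts only, and the median log2 fold change over all genes was 0.00 and -0.04, respectively.

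The 4 chains that passed the test are also the members with a RefSeq promoter window, of 250 bases before to 50 after the transcription start, in GRCm38.p6. To show what sequence precedes the chains that moved up or down, the first part of each window is given 5′ to 3′ on the gene's strand. It stops before the first base of an annotated exon of any gene, or before the RefSeq gene start. A stretch can thus end short of the chain's own start. Capitals mark matches to the E-box letters CACCTG on either strand.
Lama5, chr2:180225905-180226109, minus strand: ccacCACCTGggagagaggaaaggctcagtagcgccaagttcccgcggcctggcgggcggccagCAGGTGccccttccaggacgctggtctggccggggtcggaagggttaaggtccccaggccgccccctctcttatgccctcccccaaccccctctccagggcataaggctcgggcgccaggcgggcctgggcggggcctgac
Lamb1, chr12:31265043-31265145, plus strand: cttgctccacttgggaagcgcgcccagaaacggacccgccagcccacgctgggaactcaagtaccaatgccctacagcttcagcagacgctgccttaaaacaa
Lamb2, chr9:108479612-108479735, plus strand: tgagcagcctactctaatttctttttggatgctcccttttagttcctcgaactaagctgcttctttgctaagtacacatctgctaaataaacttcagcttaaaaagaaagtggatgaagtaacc
Lamb3, chr1:193301744-193301992, plus strand: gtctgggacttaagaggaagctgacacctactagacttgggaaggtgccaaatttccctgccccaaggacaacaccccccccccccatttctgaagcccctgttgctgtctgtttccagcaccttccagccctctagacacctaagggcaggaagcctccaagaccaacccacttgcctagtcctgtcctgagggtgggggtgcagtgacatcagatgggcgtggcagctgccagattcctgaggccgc

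These promoters differ in composition, with a GC content over the whole window of 72.7% for Lama5, 63.7% for Lamb1, 44% for Lamb2 and 59.3% for Lamb3. A total of 5 short letter patterns were searched on both strands, with the share of all 32851 RefSeq windows that hold each given in parentheses. They were the AP-1 site TGANTCA (7.81%), the TEAD site GGAATG (14.7%), the SMAD palindrome GTCTAGAC (0.213%), the kappaB site GGGNNTTCC (5.82%) and the E-box CACCTG (20.2%). The Lama5 window held 2 E-box matches, at -246 to -241 and -186 to -181 from the start. Those of Lamb1 and Lamb2, and the window of the Lamb3 start at 193301994, held no match to any of the 5 patterns. The window of a further Lamb3 start at 193302243 held 1 TEAD match, at -167 to -162, and 2 E-box matches, at -6 to -1 and 4 to 9. E-box matches were thus present in a window of 1 chain that fell and of 1 chain that rose. A match describes letters only, and whether a factor binds there was not measured.

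Among the alpha chains, Lama5 carried nearly all of the transcripts. Lama5 (ENSMUSG00000015647) lies on the minus strand of chromosome 2 from 180176373 to 180225859 in GRCm38, with 11388 exonic bases. It had 29965 and 30087 counts in control and 25475 and 23826 in IL-12 libraries. On the scale of the deposited FPKM values, which adjust for gene length and library depth and on which levels of different genes can be compared, Lama5 stood at 139 and 140 in control and 113 and 116 in IL-12 libraries. Both IL-12 libraries lay below both control libraries, and the gap was far wider than that between libraries of a group. The mean FPKM was 139 ± 0.94 (SD, n = 2) in control and 114 ± 1.83 (SD, n = 2) after IL-12. The log2 fold change was -0.29 ± 0.02 (SE), with an adjusted p of 4.74e-08 in edgeR's quasi-likelihood test.

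The other alpha chains were at or near the detection floor. Lama3 (ENSMUSG00000024421, chromosome 18, plus strand, 12333819 to 12583013) had 6 and 3 counts in control and 8 in each IL-12 library, or 0.015 to 0.041 FPKM, with 3 counts equal to 0.014 to 0.015 FPKM. It was not tested with the low-count filter. Without the filter its log2 fold change was 0.81 ± 0.63 (SE), with an edgeR adjusted p of 0.568, so that no difference could be detected at this depth. Counts per gene do not separate the long and short transcripts of Lama3, and 197 of its exonic bases overlap an antisense gene, Gm29200, that had 0 counts. Lama4 (chromosome 10, plus strand, 38965515 to 39110188) had 1 count in a control library and 0 in the other 3. Lama1 (chromosome 17, plus strand, 67697259 to 67822647) had 0 counts in all 4 libraries, which allows a level of up to 0.163 CPM. Lama2, an alpha chain of muscle and nerve outside the 8 genes chosen, had 1 and 0 counts in control and 3 and 2 in IL-12 libraries. In every library Lama5 thus made up between 99.96% and 99.99% of the summed alpha chain FPKM.

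**Figure D1:**
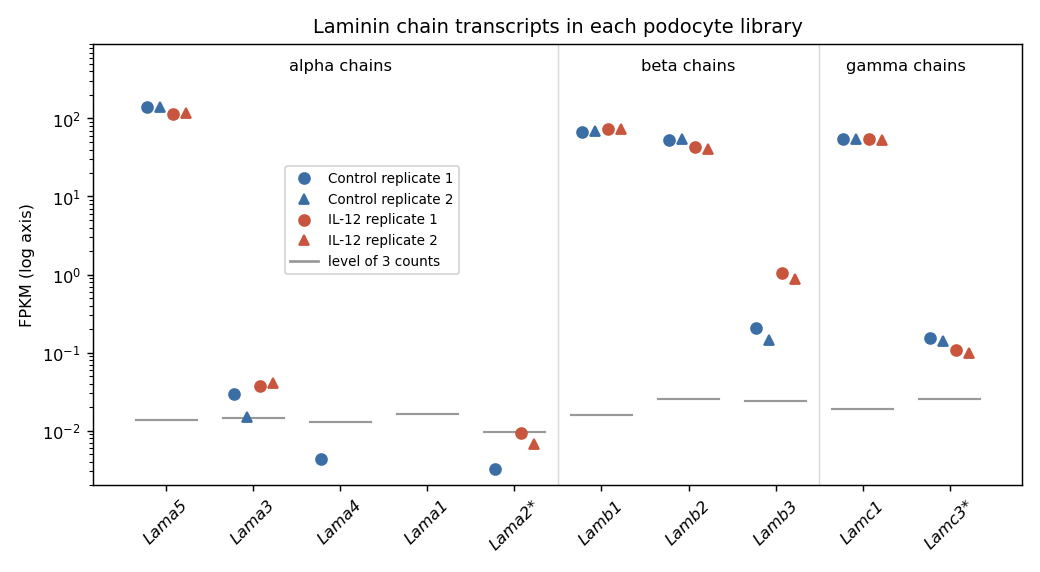
Length-adjusted level (FPKM, log axis) of 10 laminin chain genes in the 4 libraries, with control in blue, IL-12 in red, replicate 1 as circles and replicate 2 as triangles. Grey lines mark the level of 3 counts, asterisks mark chains outside the 8 chosen genes, and values of 0 (Lama1 in every library, Lama4 in 3 and Lama2 in 1) cannot be drawn. Lama5, Lamb1, Lamb2 and Lamc1 lie between 40.6 and 140 FPKM in every library, while Lamb3 lies near 0.2 in control and near 1 after IL-12.

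The beta chains moved in opposite directions. Lamb2 (ENSMUSG00000052911, chromosome 9, plus strand, 108479736 to 108490530, 6082 exonic bases) had 6103 and 6279 counts in control and 5161 and 4462 in IL-12 libraries. Its FPKM was 52.9 and 54.7 in control and 42.9 and 40.6 after IL-12. Both IL-12 libraries were below both control libraries, and the log2 fold change was -0.37 ± 0.04 (SE), with an edgeR adjusted p of 2.82e-07. Of all genes tested, 19.95% changed by more on the log2 scale, in either direction.

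Lamb1 (ENSMUSG00000002900, chromosome 12, plus strand, 31265234 to 31329644, 9917 exonic bases) had 12606 and 12844 counts in control and 14312 and 13137 in IL-12 libraries. Its FPKM was 67.0 and 68.7 in control and 73.0 and 73.3 after IL-12. Each IL-12 library exceeded each control library, by less than in the other chains that passed. The log2 fold change was 0.11 ± 0.03 (SE), with an edgeR adjusted p of 0.00567. The call was lost when libraries were scaled by total counts only (0.07, edgeR adjusted p = 0.076) and when control replicate 1 was left out (0.09, edgeR adjusted p = 0.0754). It was also lost on the log2(FPKM + 1) and log2(FPKM + 0.1) scales, at limma adjusted p-values of 0.0585 and 0.060.

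Since Lamb1 and Lamb2 encode alternative beta partners of the same alpha and gamma chains, their levels were compared within each library, where scaling between libraries cancels. Per length, Lamb1 stood at 1.27 and 1.25 times Lamb2 in the control libraries and at 1.70 and 1.81 times Lamb2 in the IL-12 libraries. The ratio was higher in both IL-12 libraries, by 0.48 on the log2 scale (1.26 ± 0.01 in control and 1.75 ± 0.07 after IL-12, SD, n = 2). A two-sided exact permutation test gave p = 0.33, the smallest that 2 libraries against 2 can give. As a share of the summed beta chain FPKM, Lamb1 made up 55.8% and 55.6% in control and 62.4% and 63.9% in IL-12 libraries. Lamb2 made up 44.0% and 44.3% in control and 36.7% and 35.4% in IL-12 libraries. The summed beta chain level was 122 ± 2.41 FPKM in control and 116 ± 1.57 FPKM after IL-12 (SD, n = 2).

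**Figure D2:**
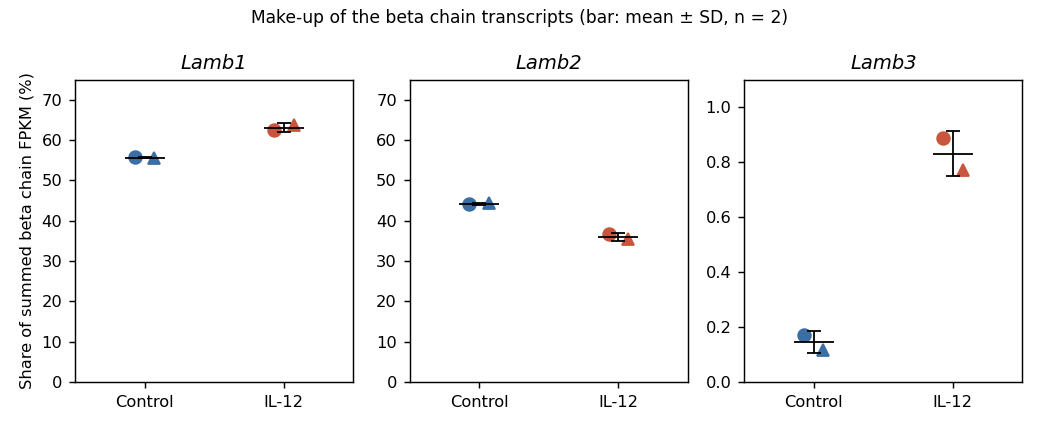
Share of each beta chain gene in the summed beta chain FPKM (%), by library, with control in blue and IL-12 in red, circles for replicate 1, triangles for replicate 2 and black bars for mean ± SD (n = 2). The panels differ in scale: Lamb1 goes from near 56% to over 62%, Lamb2 from 44% to under 37%, and Lamb3 stays below 1% in all libraries.

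Of the 5 members tested, Lamb3 had the largest fold change and the lowest level per length. The gene (ENSMUSG00000026639) is annotated on the plus strand of chromosome 1 from 193207699 to 193343878, with 6612 exonic bases, while the RefSeq starts at 193301994 and 193302243 lie well inside that span. It had 26 and 18 counts in control and 136 and 106 in IL-12 libraries. The corresponding FPKM values were 0.207 and 0.144 in control and 1.04 and 0.887 after IL-12. All 4 libraries were above the level of 3 counts for this gene (0.023 to 0.025 FPKM), and both IL-12 libraries lay far above both control libraries. On the CPM scale the mean went from 1.16 ± 0.30 to 6.37 ± 0.72 (SD, n = 2), a log2 fold change of 2.45 ± 0.24 (SE) with an edgeR adjusted p of 2.30e-07. It ranked at place 7 among all genes tested by log2 fold change upward. The size depends on how low counts are treated, with 2.21 to 2.74 when a library was left out and 0.74 on the log2(FPKM + 1) scale, which understates the change of a gene at this level. The span of Lamb3 also holds 6 other annotated genes, among them Hsd11b1 and G0s2, which had between 0 and 2 counts over all libraries and share no exonic base with it.

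Despite its rise, Lamb3 remained a minor beta chain, with 0.173% and 0.117% of the beta chain FPKM in control and 0.890% and 0.773% in IL-12 libraries. Lama3, its alpha partner in the epidermal laminin, was too low to test. Per length, Lamb3 stood at 7.04 and 9.75 times Lama3 in control and 27.6 and 21.5 times in IL-12 libraries. Lamb3 was thus above Lama3 in all 4 libraries. The Lama3 ratios rest on 3 to 8 Lama3 counts a library.

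Lamc1 was the gamma chain among the 8 genes. The gene (ENSMUSG00000026478, chromosome 1, minus strand, 153218922 to 153332786, 8272 exonic bases) had 8620 and 8543 counts in control and 8840 and 7993 in IL-12 libraries. Its FPKM was 55.0 and 54.8 in control and 54.1 and 53.5 after IL-12. The IL-12 libraries were slightly below the control libraries, with a log2 fold change of -0.03 ± 0.03 (SE) and an edgeR adjusted p of 0.490, and none of the 12 alternative settings brought it past the test. Lamc3, a gamma chain outside the 8 genes chosen, had 18 and 16 counts in control and 13 and 11 in IL-12 libraries (log2 fold change -0.50 ± 0.43 SE, edgeR adjusted p = 0.430).

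**Figure D3:**
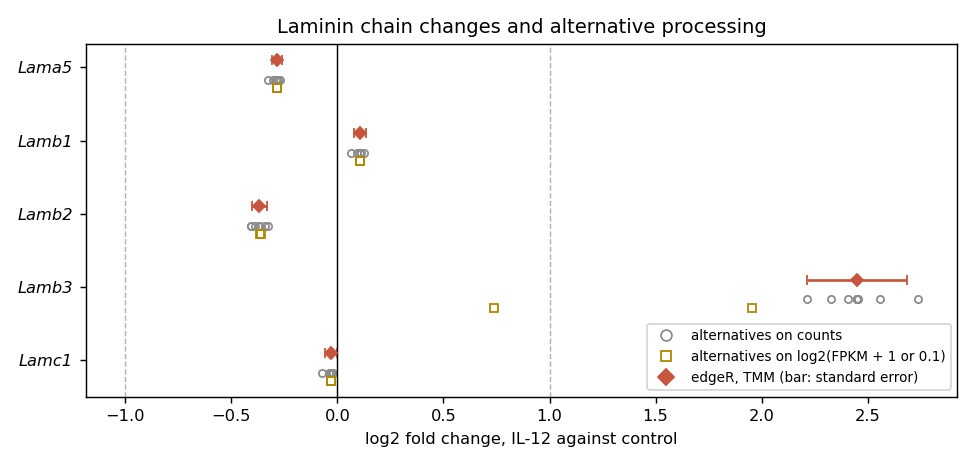
Log2 fold change (IL-12 against control) of the 5 laminin chains tested. Red diamonds give the edgeR value with its standard error, grey circles the alternative settings on counts, ochre squares those on log2 FPKM values, and dashed lines mark a 2-fold change. Lama5 and Lamb2 lie left of 0 and Lamb1 right of it under every setting, and Lamb3 lies beyond the 2-fold line except at 0.74 on the log2(FPKM + 1) scale.

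Set in order per length, the control libraries ranked Lama5 above Lamb1, Lamb1 above Lamc1 and Lamb2, and these above Lamb3 and Lama3. Lamc1 (54.9 ± 0.13 FPKM) and Lamb2 (53.8 ± 1.29 FPKM) differed by less than the spread of Lamb2 between the control libraries. After IL-12 the order was the same, but Lamc1 (53.8 ± 0.43 FPKM) and Lamb2 (41.8 ± 1.65 FPKM) were now apart by more than their spread (SD, n = 2). Lama5 stood at 2.53 and 2.56 times Lamc1 in control and at 2.09 and 2.17 times in IL-12 libraries. Relative to Lamc1, the level of Lama5 was thus lower in both IL-12 libraries. The 11 laminin chain genes together took 0.308% and 0.310% of the counts in control and 0.269% and 0.270% in IL-12 libraries.

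The receptors through which cells hold laminin were split in direction. Of 12 listed genes, 11 were tested, 3 rose and 4 fell, beside 16.1% of all genes tested higher and 14.4% lower, with a median log2 fold change of 0.04 against 0.00 over all genes. All 3 that rose encode integrin subunits. Itgb1, the common beta subunit, had 2180 and 2212 CPM in control and 2940 and 2916 CPM in IL-12 libraries (log2 fold change 0.41 ± 0.02 SE). Itga3, its main partner in podocytes, had 1422 and 1475 CPM in control and 1822 and 1766 CPM in IL-12 libraries (0.31 ± 0.03 SE). Itga6, the alpha subunit that pairs with Itgb1 or Itgb4, rose by 0.45 ± 0.04 SE. Dag1, which encodes dystroglycan, a laminin receptor that is not an integrin, fell from 1213 and 1179 CPM to 817 and 832 CPM (-0.54 ± 0.03 SE). These 4 receptors, named for having the smallest p of the list, had edgeR adjusted p-values between 3.24e-11 and 4.14e-08.

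Basement membrane partners, the collagen IV chains, nidogens, heparan sulfate proteoglycans and netrin-4 that join or bind the laminin sheet, included 13 listed genes. All 11 tested passed, with 4 higher and 7 lower, beside 30.5% of all genes passing, 16.1% higher and 14.4% lower. Their median log2 fold change was -0.10, and 2 changed over 2-fold, beside 1.61% of all genes. Those 2 were Col4a3 and Col4a4, chains of the collagen IV network of the mature glomerular basement membrane. Col4a4 went from 342 and 351 counts in control to 1053 and 990 in IL-12 libraries (log2 fold change 1.56 ± 0.07 SE). Col4a3 went from 116 and 125 to 375 and 344 counts (1.57 ± 0.12 SE). Col4a5, the third chain of that network, moved the other way, from 17804 and 17194 to 14481 and 13812 counts (-0.31 ± 0.03 SE), and Ntn4, which encodes a netrin that disrupts laminin polymers, fell by 0.53 on the log2 scale (SE 0.05). Their edgeR adjusted p-values were between 1.14e-11 and 1.60e-07. Col18a1, Agrn and Col4a6, which were lower, lost their calls when 1 library was left out (Col18a1 without control replicate 1 or IL-12 replicate 2, Agrn without control replicate 2 or IL-12 replicate 1, Col4a6 without IL-12 replicate 1) and on both FPKM scales.

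Genes of the hemidesmosome and of anchorage by the epidermal laminin, the structure that Lamb3 serves in skin, rose for 3 and fell for 1 of 6 tested (of 7 listed), beside 16.1% of all genes higher and 14.4% lower, with a median log2 fold change of 0.29. Besides Itga6, which is also among the receptors, Plec, which encodes the linker plectin, rose by 0.24 ± 0.03 SE. Col7a1, which encodes the collagen of anchoring fibrils, went from 72 and 78 counts to 152 and 154 (log2 fold change 1.03 ± 0.16 SE, edgeR adjusted p = 7.11e-05). Dst, which encodes a plakin linker, fell by 0.21 on the log2 scale (SE 0.04), and this call was lost in the DESeq2 Wald test (adjusted p = 0.0955) and on both FPKM scales. The defining hemidesmosome genes were scarcely present, with 10 to 15 counts of Itgb4 (edgeR adjusted p = 0.637) and 1 or 2 counts of Col17a1 in each library. Of 4 listed proteases that process the epidermal laminin, 3 were tested and 1 rose, a share near the 30.5% of all genes that passed in either direction, with a median log2 fold change of 0.06. That gene, Tll1, had 6 and 0 counts in control and 46 and 33 in IL-12 libraries, with an edgeR adjusted p of 8.65e-05. It passed the low-count filter through the IL-12 libraries alone, and its fitted log2 fold change of 3.66 ± 0.59 (SE) depends on how the control library at 0 is treated. With at least 10 counts required in every library Tll1 was not tested, and DESeq2 gave it no adjusted p.

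**Figure D4:**
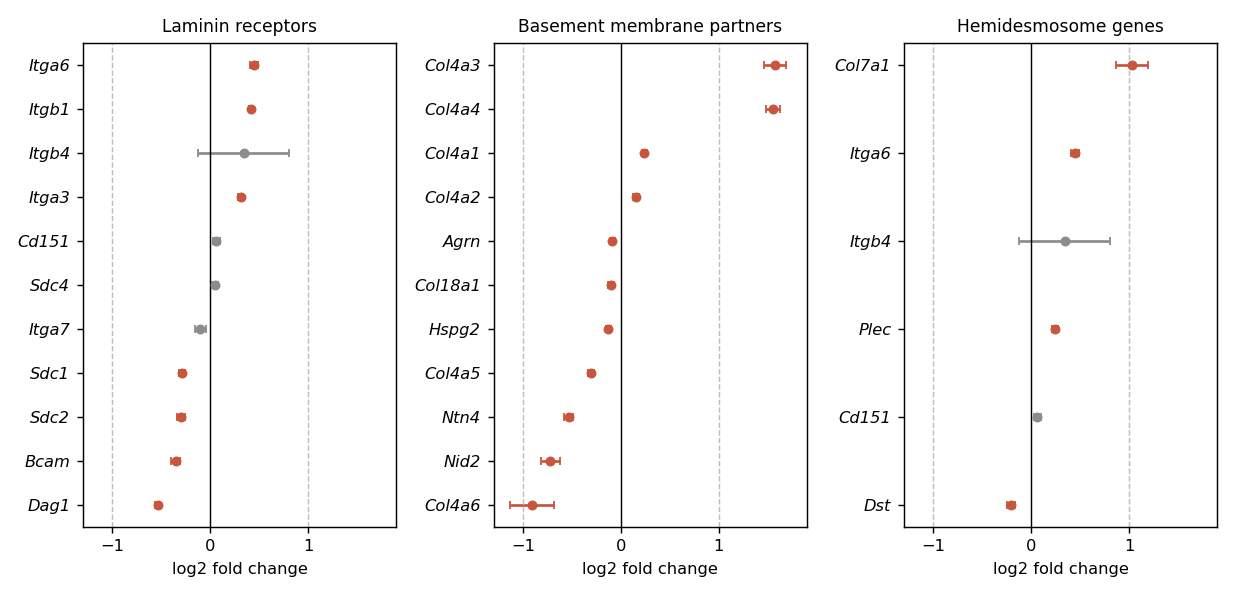
Log2 fold change (IL-12 against control, points, with standard error bars) of the laminin receptors, basement membrane partners and hemidesmosome genes tested. Red marks genes with an edgeR adjusted p below 0.05, grey the others, and dashed lines mark a 2-fold change. Col4a3, Col4a4 and Col7a1 lie beyond the 2-fold line, and the receptors spread from -0.54 (Dag1) to 0.45 (Itga6).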

How the data were processed

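The authors deposited raw counts per gene for 4 libraries, not normalized, and FPKM values for the same genes. The submitters' processing notes name HISAT2, StringTie and the build mm9, with no versions or roles. The deposited coordinates, however, equal those of GENCODE M21 (GRCm38) for 98.3% of the 54409 genes in both, including all 11 laminin chain genes, and are given in GRCm38. The treatment of multimapping reads and of strand is not given in the sources used here. The FPKM values equal the count per kilobase and library total times a further factor per library (0.985 and 0.989 in control, 1.02 in both IL-12 libraries), so that they carry a scaling of about the size of the TMM correction, and the deposited lengths equal the exonic bases of GENCODE M21 for all 11 chains. The sequencing company of the study made the values, and the result of its differential test, which is not named, is not used here.

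The test ran in edgeR 4.0.16 (R 4.3.3). The filterByExpr function of edgeR left 14095 genes, libraries were scaled by TMM (factors 0.985 to 1.02), and groups were compared by the quasi-likelihood test with Benjamini-Hochberg adjustment over all genes tested. Standard errors are the log2 fold change over the square root of F. CPM values of genes are TMM-scaled, while the level of 3 counts, in CPM and in FPKM, rests on the library totals with no further scaling. The test was checked on simulated counts. Promoter sequences are from RefSeq (GRCm38.p6), matched by symbol for 4 members. Figures were drawn with matplotlib 3.10.9.

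The 8 members and the lists (other laminin chains, laminin receptors, basement membrane partners, hemidesmosome genes, proteases of the epidermal laminin and cell type markers) were chosen with earlier results of these data known. All members are named, and of each list at most 4 genes that passed, those with the smallest p, or the 2 most abundant where none passed. Genes beyond this rule (Lama2, Itgb4, Col17a1, Col18a1, Agrn, Col4a6 and the markers) are named for their low level or lost calls, after their values were seen. Certain genes of these lists are not reported here.

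The groups share the replicate numbers 1 and 2 by label only. With 2 libraries against 2, an exact permutation test cannot go below 0.33, so that p-values rest on the spread edgeR shares across genes. The 12 alternatives were DESeq2 (1.42.0) size factors, total counts only, the DESeq2 Wald test, no filter, at least 10 counts in every library, a replicate block, each of the 4 libraries left out, and limma (3.58.1) on log2(FPKM + 1) and log2(FPKM + 0.1).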

Additional observations from a re-analysis of the deposited data

How the results depend on the processing

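Lama5, Lamb2 and Lamb3 kept their direction and stayed past an adjusted p of 0.05 under all 12 alternatives, with log2 fold changes of -0.33 to -0.27, -0.41 to -0.33 and 0.74 to 2.74, and Lamc1 stayed short of it (-0.07 to -0.02). Lamb1 kept its direction and lost the call with total counts only (0.066), on log2(FPKM + 1) (0.107) and log2(FPKM + 0.1) (0.108), and without control replicate 1, the range with a library left out being 0.093 to 0.124. The number of genes past the adjusted p was 4297 as reported, 2705 with the DESeq2 Wald test and 2528 to 3722 with a library left out. Genes also over 2-fold numbered 227 as reported, 103 with the DESeq2 Wald test, 38 on log2(FPKM + 1), 141 on log2(FPKM + 0.1) and 144 to 254 with a library left out. In both cases, the number as reported is that of edgeR's quasi-likelihood test described above. It is not the study's own count of differential genes, and no source used here names the test behind that count. A pseudocount shrinks the fold change of low genes by arithmetic, but what makes the numbers differ between settings was not tested.

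Same-numbered libraries did not deviate together (correlation across genes -0.03), so that the number was not taken as a pair. With the replicate block the counts were 4341 and 241, and no laminin chain changed its call. Lama1, Lama3 and Lama4 had too few counts to be tested, at most 8 in any library. Whether low depth or low expression lies behind this was not tested.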
